A study of Mus musculus with 8 samples.

Results

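The MYC and MAX network is a small family of transcription factors that share the protein partner MAX. The 10 genes described here were Myc, Mycn and Mycl, the partner gene Max, and the antagonist genes Mxd1, Mxd3, Mxd4, Mxi1, Mnt and Mga. They were taken by gene symbol from the 54838 genes of the deposited tables, and each symbol was found once. MYC proteins bind DNA as pairs with MAX at E-boxes, short sites with the core CACGTG, and activate genes for growth, nucleotide synthesis and ribosome production. MXD proteins, MXI1, MNT and MGA compete for the same partner and the same sites. MXD proteins and MXI1 are among those that recruit the SIN3 and histone deacetylase corepressor. MYC is a frequent driver of liver cancer, where its gene is often amplified and its targets are active.

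RNA-seq libraries came from cultured mouse hepatocellular carcinoma cells. Per the labels, the parental line 3H3 arose in a liver tumour of a C57BL/6 mouse lacking MC4R and fed a high-fat diet, and it carries an Hras mutation. 3H3P is that line after CRISPR/Cas9 disruption of Trp53, with p53 protein lost on western blot, and it had 1 library. 3H3PM is 3H3P with ectopic MYC, and its 7 libraries came from 7 subclones (1, 2, 3, 6, 7, 8 and 9) that were isolated from tumours grown in nude mice and then cultured. Both groups therefore share the Trp53 disruption and the Hras mutation. Subclones 4 and 5 were not analysed here. Neither the species of the introduced MYC nor the promoter that drives it is given in the sources used here. The study compared 3H3P with the 3H3PM subclones, so the effects of MYC, of passage through mice and of subcloning cannot be told apart. Each subclone is a separate isolate with 1 library, p-values reflect the spread from isolate to isolate, and the lone library of 3H3P was assumed to vary like them. An exact permutation test of 1 library against 7 cannot reach 0.05, so single values were given no such test.

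Libraries held 12838521 to 17987068 expected counts. Trp53 was at 212 CPM (counts scaled to library size) in the 3H3P-labelled library and between 46.7 and 66.6 CPM in the subclones, with a median of 52.9. These counts do not check the knockout, because a disrupted gene can still be transcribed. Mitochondrial genes took 3.18% of counts in the 3H3P-labelled library and 1.97% to 2.31% in the subclones. The 16 hepatocyte markers summed to 2160 TPM (a scale that also divides by transcript length) in the 3H3P-labelled library and to 60.4 to 188 TPM in the subclones, and Cps1 was listed at 0 in all 8 libraries. The largest parts of the first sum were Krt18 (785 TPM), Trf (725) and Krt8 (431). A higher mean in the subclones was seen for 2 of the 16, among them Afp (0.25 against 0.34 to 5.75 TPM). Albumin (Alb), a defining hepatocyte product, was at 2.79 TPM in the 3H3P-labelled library and at 0 to 1.71 TPM in the subclones. The 12 fibroblast and stellate markers summed to 107 TPM against 30.6 to 140 TPM, with Lum and Thy1 at 0 throughout. Dcn gave 105.5 TPM of the first sum and 0 to 0.07 TPM in the subclones, while 8 of the 12 had a higher mean in the subclones, among them Pdgfrb (0.2 against 26.1 to 40.2 TPM). The 8 endothelial markers summed to 1.79 against 0.2 to 1.28 TPM (Emcn at 0), the 8 macrophage markers to 8.08 against 6.2 to 18.3 TPM (Marco at 0), and the 8 lymphocyte markers to 0 against 0 to 0.03 TPM (6 at 0). The part of these shifts in the results below was not tested. Fewer cells of a kind and less RNA per cell cannot be told apart in bulk libraries.

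E-boxes in the promoters of the network's own genes are shown first, since these genes can themselves be read by MYC and MAX pairs. RefSeq promoters (GRCm38.p6, 250 bases before to 50 after the start) were matched by symbol for 9 of the 10 genes, 11 promoters in all. The motif CACGTG, which is its own reverse complement, was found in 3 of the 11 promoters, those of Max, Mnt and Mxd4. Of all 32851 promoters in the table, 2349 held it (7.15%). The 60-base windows around the matches follow, with the E-box in capitals.
Max, chr12:76962239-76962298, minus strand, E-box beginning 3 bases before the start: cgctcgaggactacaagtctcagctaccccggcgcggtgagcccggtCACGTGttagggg
Mnt, chr11:74830774-74830833, plus strand, E-box beginning 123 bases before the start: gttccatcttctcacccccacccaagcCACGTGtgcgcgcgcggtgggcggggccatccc
Mxd4, chr5:34187897-34187956, minus strand, E-box beginning 219 bases before the start: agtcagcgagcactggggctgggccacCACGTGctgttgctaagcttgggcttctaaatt

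These matches are letters in a window and carry no measurement of binding. Of the 3 genes, Max rose in the subclones, while Mnt and Mxd4 did not pass the test, as given below.

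The subclones had far less mouse Myc transcript than 3H3P, more Max and more of the antagonists Mxi1 and Mxd3. In edgeR's quasi-likelihood test with Benjamini-Hochberg adjustment over 14634 genes, 5 of the 10 network genes passed at an adjusted p under 0.05. Max, Mxi1 and Mxd3 were higher and Myc and Mycn lower, while Mycl, Mxd1, Mxd4, Mnt and Mga did not pass. Among all tested genes 19.1% passed, 7.33% as higher and 11.8% as lower. The count of network genes called was 4 with DESeq2 (23.4% of all tested genes) and 3 without subclone 3 (13.8%) or without subclone 9 (16.6%). The median log2 fold change was 0.37 over the 10 genes and 0.03 over all tested genes. For 6 of the genes, namely Myc, Mycn, Mycl, Max, Mxd3 and Mxi1, the 3H3P value lay outside the range of the subclones, beside 57.4% of all tested genes. It was above each subclone for the 3 MYC genes (30.4% of all tested genes) and below each for Max, Mxd3 and Mxi1 (27.1%).

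**Figure D1:**
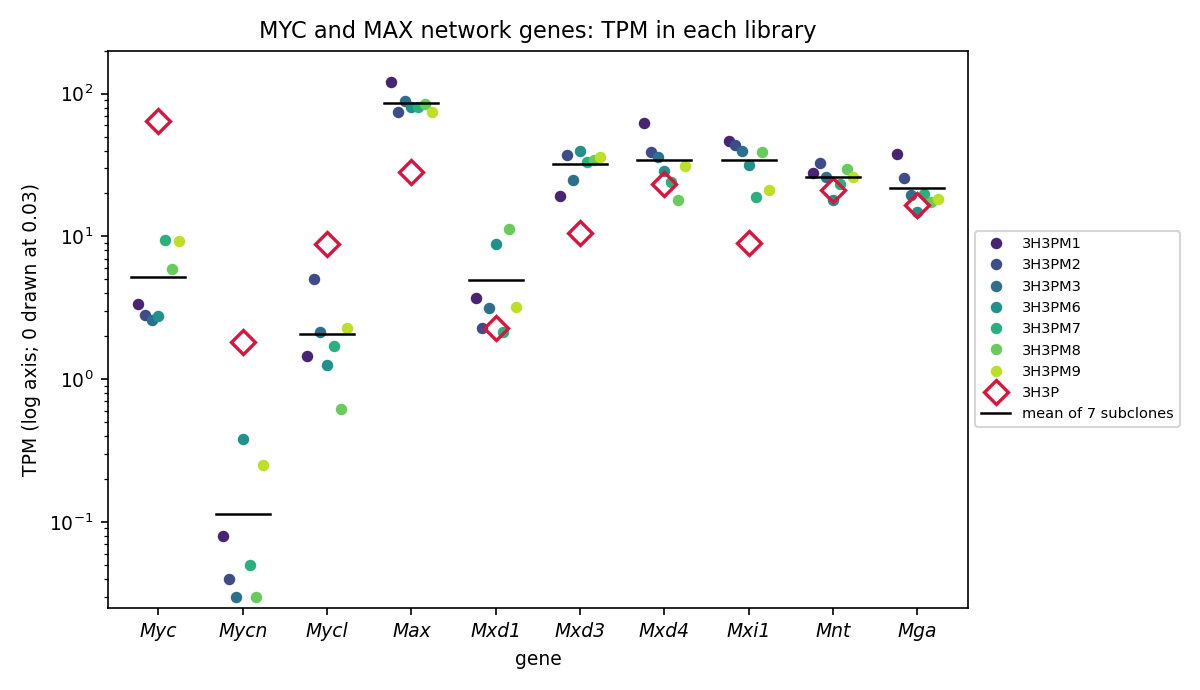
TPM on a log axis for each of the 10 network genes, with a diamond for the 3H3P-labelled library, a coloured point for each of the 7 subclones and a bar at the subclone mean. Myc, Mycn and Mycl lie below the diamond in each subclone, and Max, Mxd3 and Mxi1 lie above it. A value of 0 is drawn at the foot of the axis.

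Myc (ENSMUSG00000022346.15, chromosome 15, 61985391 to 61990374, plus strand, GRCm38) encodes the family member most widely expressed in dividing cells. It stood at 85.2 CPM in the 3H3P-labelled library. In the subclones it ranged from 3.57 CPM (subclone 3) through a median of 4.11 to 11.6 CPM (subclone 9), with a mean of 6.54 ± 3.58 CPM (SD, n = 7). Every subclone was far below 3H3P, and within the subclones numbers 1, 2, 3 and 6 lay close together at 3.57 to 4.11 CPM while 8, 7 and 9 were higher at 7.63, 11.2 and 11.6 CPM. The log2 fold change was −3.71 (SE 0.53, edgeR adjusted p = 0.00206), 13.1-fold lower. The fall rests on 1369 counts in 3H3P and 669 counts over the 7 subclones together. It was called in 16 of 16 alternative settings, with an adjusted p of 2.93e-06 to 0.0161. The libraries labelled as carrying ectopic MYC thus did not show more reads under the mouse gene. Whether an introduced sequence would be counted there was not tested, so the counts do not check that label.

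Mycn (ENSMUSG00000037169.15, chromosome 12, 12936093 to 12941914, minus strand), a family member active mainly in embryonic and neural tissue, was near the detection floor in the subclones. The library labelled 3H3P held 48 counts, or 2.99 CPM, and the 7 subclones together held 20 counts. Subclones 3 and 8 had 0 counts, which allows up to 3 counts a library, the median was 0.0764 CPM, and subclone 6 was highest at 0.662 CPM with 10 counts. The groups did not overlap. The log2 fold change was −3.92 (SE 1.17, edgeR adjusted p = 0.0450). Only 3H3P and subclone 6 exceeded the filter of 0.651 CPM in 1 library, so the gene entered the test mainly through the library where it was high. The call was lost with DESeq2 (adjusted p = 0.132) and without subclone 1 (0.0681), 2 (0.0677), 3 (0.0617), 7 (0.0689) or 9 (0.0521).

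Mycl (ENSMUSG00000028654.13, chromosome 4, 122995652 to 123002485, plus strand) encodes L-MYC, the third MYC protein. It was at 19.1 CPM in the 3H3P-labelled library. The subclones ran from 1.33 CPM (subclone 8) through a median of 3.67 to 11.0 CPM (subclone 2), a mean of 4.49 ± 3.11 CPM. All 7 subclones were below 3H3P and the groups did not overlap. Even so, the log2 fold change of −2.08 (SE 0.70) missed the threshold, with an edgeR adjusted p of 0.0680. It passed with limma-voom (0.0179), with chromosome medians removed (0.0330) and without subclone 2 (0.0139).

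Max (ENSMUSG00000059436.13, chromosome 12, 76937269 to 76962201, minus strand) encodes the partner that each MYC and MXD protein needs to bind an E-box. It was at 33.9 CPM in the 3H3P-labelled library. In the subclones it ranged from 81.3 CPM (subclone 9) through a median of 96.9 to 112 CPM (subclone 1), a mean of 95.9 ± 10.9 CPM. Every subclone was above 3H3P by more than the whole range of the subclones. Max rose 2.83-fold, a log2 fold change of 1.5 (SE 0.22, edgeR adjusted p = 0.00238), and was called in 16 of 16 alternatives. The 511 tested genes of chromosome 12 had a median log2 fold change of 0.59. With each chromosome's median removed from each library, the Max value was 0.96 with an adjusted p of 0.0153.

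Among the MXD genes and Mxi1, Mxi1 and Mxd3 rose and Mxd1 and Mxd4 did not pass the test. Mxi1 (ENSMUSG00000025025.13, chromosome 19, 53310518 to 53375810, plus strand), also called Mxd2, was at 31.5 CPM in the 3H3P-labelled library. The subclones ran from 62.2 CPM (subclone 7) through a median of 134 to 155 CPM (subclone 1), a mean of 117 ± 37.4 CPM. All 7 subclones exceeded 3H3P, and subclones 7 and 9 (69.9 CPM) were the lowest of them. The log2 fold change was 1.89 (SE 0.54, edgeR adjusted p = 0.0389), 3.70-fold higher. The call was lost without subclone 3 (0.0641) or 6 (0.0584). The 501 tested genes of chromosome 19 had a median of −0.37, and with chromosome medians removed the Mxi1 value was 2.29 (adjusted p = 0.0259).

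Mxd3 (ENSMUSG00000021485.14, chromosome 13, 55325168 to 55329823, minus strand), an antagonist known for expression in cycling cells, was at 8.46 CPM in the 3H3P-labelled library. The subclones ran from 14.3 CPM (subclone 1) through a median of 26.8 to 31.2 CPM (subclone 6), a mean of 24.7 ± 5.84 CPM. Each subclone was above 3H3P. Mxd3 rose 2.91-fold, a log2 fold change of 1.54 (SE 0.42, edgeR adjusted p = 0.0328). The call was lost with limma-voom (0.0659), without subclone 9 (0.0524) and with chromosome medians removed (0.0562).

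Mxd1 (ENSMUSG00000001156.9, chromosome 6, 86647042 to 86669161, minus strand), best known from differentiating cells, varied more between subclones than between the groups. It was at 5.66 CPM in the 3H3P-labelled library. Subclone values ran from 4.81 CPM (subclone 7) through a median of 9.88 to 34.9 CPM (subclone 8). The groups overlapped, with 6 of 7 subclones above 3H3P, and the log2 fold change was 1.18 (SE 0.97, edgeR adjusted p = 0.426). Mxd4 (ENSMUSG00000037235.13, chromosome 5, 34173883 to 34187720, minus strand), also linked to differentiation, was at 55.9 CPM in the 3H3P-labelled library and between 45.5 (subclone 8) and 156 CPM (subclone 1) in the subclones, with a median of 76.2. Its groups overlapped too, and the log2 fold change was 0.56 (SE 0.55, edgeR adjusted p = 0.508).

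Mnt and Mga encode large, broadly expressed repressors. Mnt (ENSMUSG00000000282.12, chromosome 11, 74830920 to 74845725, plus strand) was at 67.3 CPM in the 3H3P-labelled library and ran from 56.0 CPM (subclone 6) through a median of 76.6 to 95.1 CPM (subclone 2). Mga (ENSMUSG00000033943.15, chromosome 2, 119897228 to 119969581, plus strand), whose protein joins MAX to a Polycomb complex, was at 107 CPM in the 3H3P-labelled library and ran from 100.4 CPM (subclone 6) through a median of 110 to 177 CPM (subclone 1). For both genes 3H3P lay inside the range of the subclones. The log2 fold changes were 0.17 (SE 0.26, edgeR adjusted p = 0.678) for Mnt and 0.18 (SE 0.30, edgeR adjusted p = 0.712) for Mga, and neither was called in any of the 16 alternatives. Mxd1 and Mxd4 were likewise not called in any of them.

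**Figure D2:**
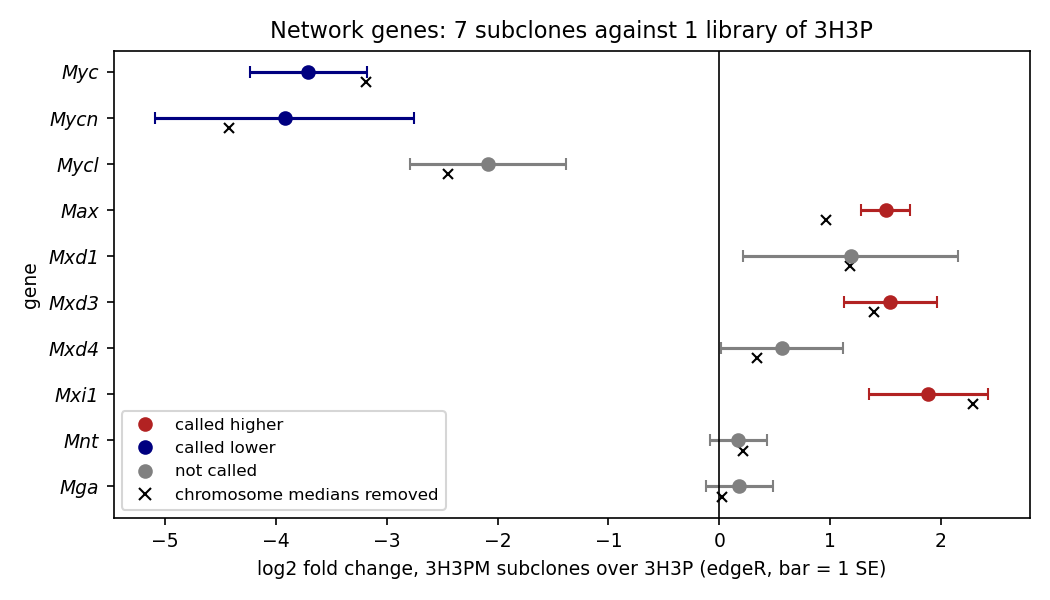
Log2 fold change of the 7 subclones over the 3H3P-labelled library for each network gene, from edgeR, with bars of 1 SE and crosses for the value with chromosome medians removed. Myc and Mycn lie on the lower side and Max, Mxi1 and Mxd3 on the higher side, in both fits, and Mnt and Mga lie near 0.

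Levels of different genes were compared on the TPM scale. In the 3H3P-labelled library the order from the top was Myc (64.0 TPM), Max (28.4), Mxd4 (23.3), Mnt (21.1), Mga (16.6), Mxd3 (10.5), Mxi1 (8.96), Mycl (8.92), Mxd1 (2.27) and Mycn (1.83). In the subclones Max led at a mean of 86.4 ± 15.9 TPM, and Myc had moved to seventh place at 5.17 ± 3.09 TPM. Between them stood Mxi1 (34.4 ± 10.8 TPM), Mxd4 (34.1 ± 14.3), Mxd3 (32.1 ± 7.38), Mnt (26.3 ± 4.70) and Mga (21.9 ± 7.67). Mxd1 (4.94 ± 3.60 TPM), Mycl (2.06 ± 1.41) and Mycn (0.11 ± 0.14) followed Myc. Neighbours in this order had ranges that did not overlap at only 3 steps, from Max to Mxi1, from Mga to Myc and from Mycl to Mycn. The 5 antagonists from Mxi1 to Mga formed a band of overlapping ranges, and the order of Mxi1 over Mxd4 held in 4 of 7 subclones.

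The make-up of the network's transcripts followed from these levels and was given no test. Myc, Mycn and Mycl together made up 40.2% of the summed TPM of the 10 genes in the 3H3P-labelled library and 3.10 ± 1.58% in the subclones (SD, n = 7), from 1.51% in subclone 1 to 5.32% in subclone 9. On the CPM scale, which does not divide by length, the shares were 25.7% and 2.19 ± 1.03%. Max made up 15.3% against 34.9 ± 3.18%. Mxd1, Mxd3, Mxd4 and Mxi1 made up 24.3% against 42.6 ± 3.66%, and Mnt and Mga 20.3% against 19.4 ± 2.40%. The groups did not overlap for the MYC family, Max or the MXD and Mxi1 share. The shares are parts of the same whole, so a lower MYC family share raises the others and these are not separate results. Of all single genes tested, 57.4% had a 3H3P value outside the range of the subclones. The sum itself was 186 TPM in the 3H3P-labelled library and 213 to 323 TPM in the subclones.

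**Figure D3:**
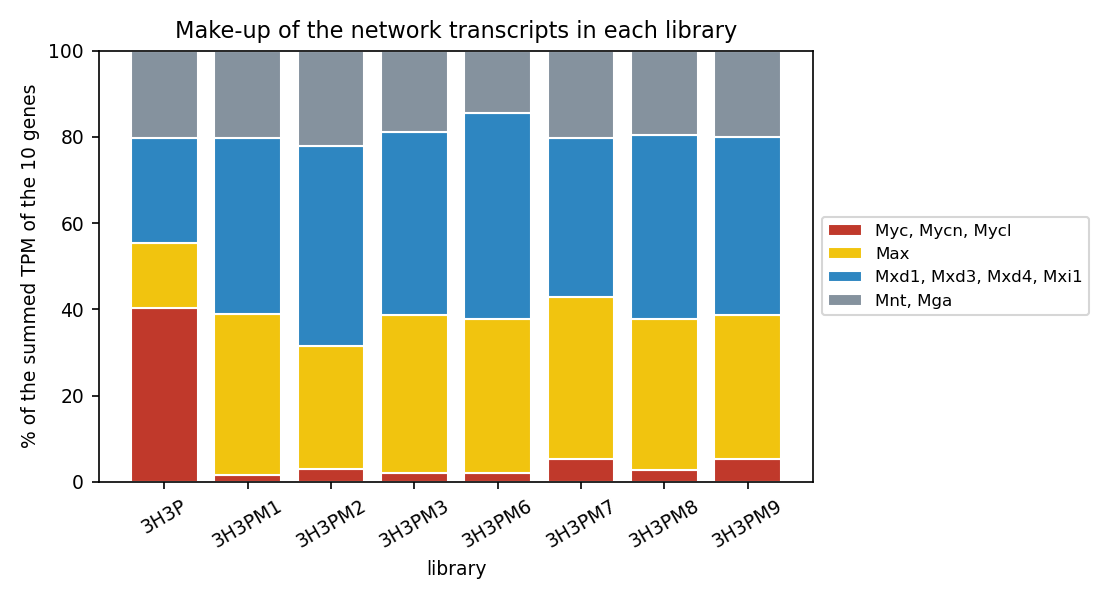
Stacked bars of the percent of the summed TPM of the 10 genes taken by the MYC family, Max, the MXD and Mxi1 antagonists, and Mnt with Mga, for each library. The MYC family takes 40.2% of the bar of the 3H3P-labelled library and at most 5.32% of any subclone bar.

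Antagonist transcripts stood 1.11 to 1 against MYC family transcripts in the 3H3P-labelled library and 24.6 ± 11.0 to 1 in the subclones, lowest in subclone 7 (10.8) and highest in subclone 1 (40.4). Max transcripts were 0.379 to 1 against the MYC family in the 3H3P-labelled library and 14.0 ± 6.87 to 1 in the subclones. Within the MYC family, Myc itself gave 85.6% of TPM in the 3H3P-labelled library. In the subclones that share ran from 35.7% in subclone 2, where Mycl was the leading member at 63.8%, to 90.5% in subclone 8. Subclone 2 was the only library of the 8 in which Mycl exceeded Myc on the TPM scale. These ratios are of mouse transcripts counted in the files and would not include an introduced MYC that went uncounted.

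The network genes differed among themselves in how widely they spread over the subclones. Over the 7 subclones the SD of log2 CPM had a median of 0.55 over the 10 genes, 0.32 over all tested genes and 0.24 over the 9128 tested genes with a subclone mean of 10 CPM or more, with no test. Max, Mnt and Mga lay below the median of all tested genes. Max was the steadiest at 0.16, above 22.0% of those 9128 genes. Mxd1 was at 0.91, above 96.3% of them, Mxd4 at 0.57 (above 90.9%), Mxi1 at 0.53 (89.5%) and Mxd3 at 0.39 (80.0%). Mga at 0.30 (67.4%) and Mnt at 0.25 (52.9%) were nearer the middle. The 3 MYC genes had subclone means under 10 CPM, where counting error adds to the spread, at 0.75 for Myc, 0.89 for Mycl and 1.00 for Mycn.

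**Figure D4:**
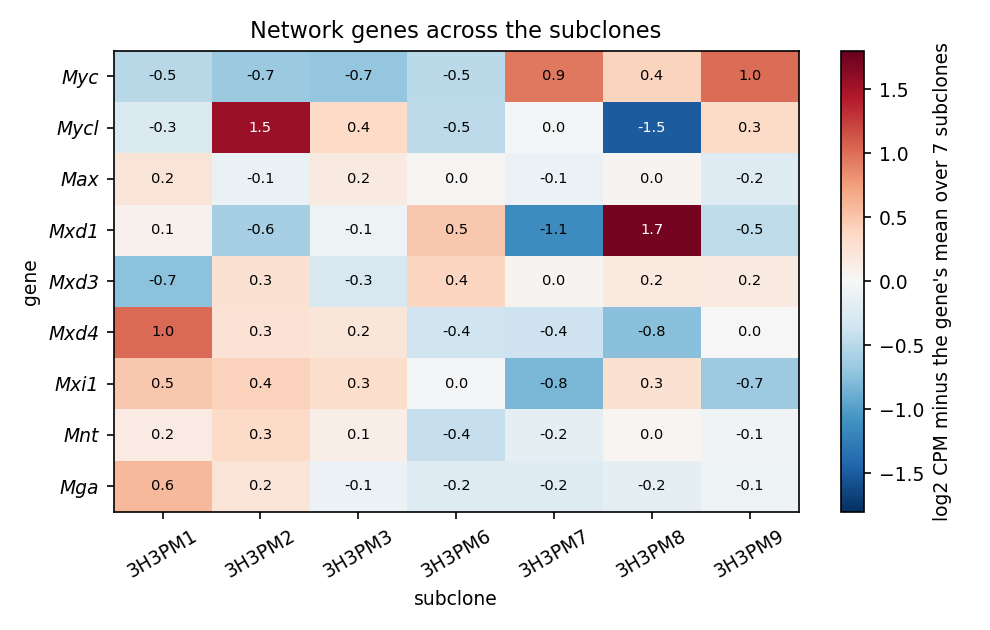
Log2 CPM of each network gene in each subclone minus that gene's mean over the 7 subclones, without Mycn, which had 0 counts in subclones 3 and 8. Mycl is highest in subclone 2, Mxd1 in subclone 8, Mxd4 in subclone 1 and Myc in subclones 7 and 9, while Max stays within a narrow range.

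Single subclones carried the high values. Mxd1 at 34.9 CPM in subclone 8 was followed by 14.8 CPM in subclone 6, and the other 5 lay at 4.81 to 11.2 CPM. The fibroblast and stellate marker sum was also highest in these subclones, at 140 TPM in subclone 8 and 90.1 TPM in subclone 6, mainly from Pdgfra at 92.8 and 54.1 TPM, while Lum and Thy1 were at 0 and Acta2 was at 0.61 and 3.38 TPM. The macrophage marker sum was likewise highest there, at 18.3 and 13.7 TPM, mainly from Cd68 and Csf1r. The macrophage markers Ptprc, Adgre1, C1qa, C1qb and Marco were at 0 in both subclones. Lyz2 was at 0.1 and 1.21 TPM in them and highest in subclone 2, at 5.83 TPM. The part of these marker sums in the Mxd1 level was not tested. Mxd4, Mxi1, Max and Mga were each highest in subclone 1, where Mxd3 was lowest.

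Whether Myc moved with the other 9 genes over the 7 subclones was examined with exact permutation tests, and no relation passed after Benjamini-Hochberg adjustment over the 9. The closest was Mxi1, which was lowest in subclones 7 and 9 where Myc was highest. Pearson's r was −0.85 (two-sided exact permutation p = 0.0147, adjusted 0.132) and Spearman's rho −0.79 (exact p = 0.0480, adjusted 0.432). Without subclones 7 and 9, the farthest from the Myc median, the r was −0.12, so the relation was not seen without them. Leaving them out also narrows the range of Myc, which by itself can change r. For Max the r was −0.64 (exact p = 0.139, adjusted 0.628), and −0.04 without subclones 7 and 9. The same step moved the r of Mxd1 from −0.16 to 0.95 and that of Mycl from −0.28 to −0.80. Both of these later values rest largely on subclone 8. It had Myc at 7.63 CPM, while subclones 1, 2, 3 and 6 lay at 3.57 to 4.11 CPM. Subclone 8 also had the highest Mxd1 (34.9 CPM) and the lowest Mycl (1.33 CPM), so no relation is read from them. The genes whose log2 CPM followed Myc most closely over the 7 subclones, of 8892 ranked, were Ganab (r = 0.976), Golt1b (0.975), Poldip3 (0.973), Dhx34 (0.972) and Usf1 (0.970). These r values describe the top of a ranking over 7 points and were given no p. Usf1 encodes another E-box-binding factor, and stood at 65.6 CPM in the 3H3P-labelled library and 31.6 to 46.8 CPM in the subclones. It did not pass (log2 fold change −0.75, edgeR adjusted p = 0.0517). A 3H3P value outside the range of the subclones was seen for 57.4% of all tested genes.

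The deposited tables also give each gene a length in bases, the mean over its transcripts weighted by their abundance, which shifts when the mix of isoforms shifts. For Max it was 1869 bases in the 3H3P-labelled library and 1857 to 1913 bases in 6 subclones, but 1589 bases in subclone 1. The longest annotated Max transcripts have 1926 and 1942 bases and the other annotated ones 203 to 819 bases. For Mxd1 the length ran from 2569 bases in subclone 6 to 4646 bases in subclone 1, with 3635 bases in the 3H3P-labelled library. Its annotated transcripts include the full-length coding form of 4666 bases and a form with a retained intron of 2615 bases. Mycl was shorter in 3H3P (3160 bases) than in each subclone (3293 to 3403 bases), on 18 to 172 counts per subclone. Mxi1 was also shorter in 3H3P (5044 bases) than in each subclone (5059 to 5089 bases). How many of all genes do so was not examined. Each of these Mxi1 lengths exceeds its longest transcript in the annotation used here (5036 bases). They were therefore not set against annotated forms, and a shift of isoforms was not tested. For Mga the length ran from 7123 bases (subclone 1) to 9737 bases (subclone 6). Since TPM divides by this length, the Mxd1 levels of subclones 6 and 8 lay closer on the TPM scale (8.90 and 11.2 TPM) than on the CPM scale (14.8 and 34.9 CPM).

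Of the 5 other tested genes within 2 Mb of Myc on chromosome 15, 3 were called lower and 2 did not pass, beside 11.8% of all tested genes called lower. This count was given no test. Pvt1, the noncoding neighbour often co-amplified with MYC in tumours, was at 15.9 CPM in the 3H3P-labelled library and 4.95 ± 1.35 CPM in the subclones (log2 fold change −1.69, SE 0.39, edgeR adjusted p = 0.0172), a call lost on the log2(TPM + 0.1) scale (0.0550). Fam84b was at 115 CPM against 27.3 ± 13.3 CPM (−2.08, SE 0.54, edgeR adjusted p = 0.0283), and Gm2682 at 3.80 CPM against 0.0303 ± 0.0379 CPM (edgeR adjusted p = 0.00116). Gm2682 exceeded the filter of 0.651 CPM in the 3H3P-labelled library alone, so it entered the test through the library where it was high. Fam49b (log2 fold change −0.78, adjusted p = 0.110) and 9930014A18Rik (−0.88, adjusted p = 0.418) did not pass. The 565 tested genes of chromosome 15 had a median log2 fold change of −0.49. With chromosome medians removed the Myc value was −3.19 (adjusted p = 0.00302).

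Partner genes of the network were next described from lists, each beside the background shares of 7.33% higher and 11.8% lower. Of 20 coactivators and binding partners of MYC, 6 rose and none fell, with a median log2 fold change of 0.30 over the list. Ruvbl2, an ATPase of MYC-associated chromatin complexes, rose from 88.5 to 188 ± 23.0 CPM (1.08, SE 0.22, edgeR adjusted p = 0.00928). Kat2a, the histone acetyltransferase GCN5, rose from 60.2 to 139 ± 21.8 CPM (1.21, SE 0.26, edgeR adjusted p = 0.0141). Wdr5, which helps MYC to chromatin, rose by 0.78 on the log2 scale (edgeR adjusted p = 0.0208). Further calls, chosen after their values were seen, were Ruvbl1 (0.99, adjusted p = 0.0280) and Ep400 (0.59, adjusted p = 0.0499). The Ep400 call was lost without subclone 1, 2, 3, 6, 7 or 9 (up to 0.113 over the alternatives), and the calls of Ruvbl2, Kat2a, Wdr5 and Ruvbl1 held in all 16.

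Of the 16 genes of the SIN3 and histone deacetylase corepressor, 3 rose and 1 fell, with a median of 0.36. Hdac1, a deacetylase, rose by 0.73 on the log2 scale (87.5 to 146 ± 7.997 CPM, edgeR adjusted p = 0.0110). The scaffold gene Sin3a rose by 0.70 (73.0 to 119 ± 12.6 CPM, 0.0353) and Rbbp4, a histone-binding subunit, by 0.57 (0.0467). Brms1, a SIN3-associated subunit, fell from 53.9 to 26.0 ± 4.63 CPM (−1.05, 0.0197). The Sin3a call was lost without subclone 3 or 9 (up to 0.0594), that of Rbbp4 without subclone 2, 3, 6, 7 or 9 (up to 0.308 over the alternatives), that of Hdac1 with chromosome medians removed (0.0824), and that of Brms1 there and on the log2(TPM + 0.1) scale (up to 0.0687).

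Mga's Polycomb complex, PRC1.6, had 4 of 12 genes higher and none lower, with a median of 0.38. E2f6, its E2F subunit, rose from 17.5 to 46.0 ± 6.34 CPM (1.39, SE 0.26, edgeR adjusted p = 0.00777) and its dimer partner Tfdp1 from 197 to 351 ± 48.9 CPM (0.83, SE 0.23, 0.0364). Hdac1 and Wdr5, counted here too, belong to 2 of the lists. The E2f6 call was lost with chromosome medians removed (0.0885) and that of Tfdp1 without subclone 3, 6, 7 or 9 (up to 0.0575). Of 16 germline genes known to be held silent by PRC1.6, 2 had enough counts to be tested. Tdrkh, a germ cell Tudor-domain gene, had 38 counts in the 3H3P-labelled library and 0 in each subclone, at least 84.2-fold lower against 3 counts over the group (edgeR adjusted p = 0.0283, DESeq2 0.133). It exceeded the filter in the 3H3P-labelled library alone, so its call lends nothing to the germline list. Zcwpw1 was at 3.98 CPM against 4.11 ± 2.59 CPM.

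In the parallel arm, where MLX takes the place of MAX, Mlxipl, the glucose-responsive factor ChREBP of liver, was at 0.373 CPM in the 3H3P-labelled library and 4.01 ± 1.84 CPM in the subclones (log2 fold change 3.40, SE 0.99, edgeR adjusted p = 0.0410). That call was lost without subclone 1, 2, 3, 6 or 9 and in 3 other settings (up to 0.138). Mlxipl lay under the filter of 0.651 CPM in the 3H3P-labelled library and entered the test through the subclones, where it was high. Mlx (24.4 against 32.5 ± 7.57 CPM) and Mlxip (64.8 against 82.9 ± 7.99 CPM) did not pass.

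Regulators of MYC protein stability had 4 of 25 genes higher and 1 lower, with a median of 0.22. Fbxo32, a ubiquitin ligase subunit that targets MYC, fell from 52.4 to 16.4 ± 4.73 CPM (−1.68, SE 0.35, edgeR adjusted p = 0.0117). The deubiquitinase genes Usp36 and Usp37 rose by 0.67 (0.0243) and 0.72 (0.0402), and the mitotic kinase gene Plk1 by 0.61 (0.0408), on the log2 scale with edgeR adjusted p. Set, an inhibitor of the phosphatase PP2A, was named after its value was seen (0.86, adjusted p = 0.0445). The Usp36 call was lost without subclone 3 (0.0516), that of Usp37 without 2, 6, 7 or 9 (up to 0.447 over the alternatives), that of Plk1 without 6, 7 or 9 (up to 0.0690), that of Set without 3, 6, 7 or 9 (up to 0.0846), and that of Fbxo32 with chromosome medians removed (0.105).

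Among 40 genes known to be activated by MYC outside ribosome production, 9 rose and 1 fell, with a median of 0.47. Tert, the catalytic subunit of telomerase, rose from 2.43 to 13.6 ± 2.67 CPM (2.48, SE 0.41, edgeR adjusted p = 0.00398). The glutamine transporter gene Slc1a5 rose from 38.5 to 183 ± 42.3 CPM (2.25, SE 0.38, 0.00480). Hspd1, a mitochondrial chaperone, rose from 926 to 2008 ± 200 CPM (1.12, SE 0.19, 0.00448). The calls of Tert, Slc1a5 and Hspd1 held in the 16 alternatives. The gene that fell was Id2, an inhibitor of differentiation, named after its value was seen (−1.15, adjusted p = 0.0472), and its call was lost without subclone 1, 3, 6, 7 or 9 and in 7 other settings (up to 0.122). The other 30 genes did not pass. Nearest the threshold were Shmt2 (log2 fold change 1.17, edgeR adjusted p = 0.0641) and Cad (1.12, 0.0727). Ldha (1815 against 2106 ± 426 CPM), Ccnd2 (186 against 198 ± 72.8 CPM) and Nme1 (160 against 155 ± 31.7 CPM) were among those that differed little.

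Genes known to be repressed by MYC moved both ways. Of the 22, 19 were tested, 7 fell and 3 rose, with a median of −0.65. Clu, the secreted chaperone clusterin, fell from 1122 to 116 ± 20.2 CPM (−3.28, SE 0.20, edgeR adjusted p = 6.57e-05) and Timp2, a metalloprotease inhibitor, from 819 to 339 ± 37.9 CPM (−1.27, SE 0.17, 0.00140). Against the list's name, Pdgfrb, a growth factor receptor gene that is also among the stellate markers, rose from 0.747 to 114 ± 20.5 CPM (7.24, SE 0.45, 6.57e-05). Thbs1, the matrix protein thrombospondin, rose from 204 to 1118 ± 242 CPM (2.45, SE 0.36, 0.00232). Zfp36l1, an RNA-binding protein gene named after its value was seen, rose by 1.197 (0.0347), a call lost without subclone 3 and with chromosome medians removed (up to 0.274). The CDK inhibitor gene Cdkn1a stood at 114 CPM against 15.6 ± 14.9 CPM, which missed the threshold (edgeR adjusted p = 0.0662).

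Regulators of Myc transcription had 4 of 19 tested genes higher and 2 lower, with a median of 0.37. Fubp1, which binds the far upstream element of Myc, rose from 191 to 407 ± 44.6 CPM (1.09, SE 0.20, edgeR adjusted p = 0.00683) and E2f4 from 52.2 to 120 ± 18.5 CPM (1.202, SE 0.26, 0.0132). Ctnnb1, the β-catenin of WNT signalling, fell from 1362 to 634 ± 106 CPM (−1.10, SE 0.23, 0.0111), and Pvt1 fell as given above. Tcf7 and Rbpj, named after their values were seen, rose by 1.65 (0.0295) and 0.95 (0.0273). The Tcf7 call was lost without subclone 3 (0.0543) and with limma-voom, and that of Rbpj with chromosome medians removed (0.0755).

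**Figure D5:**
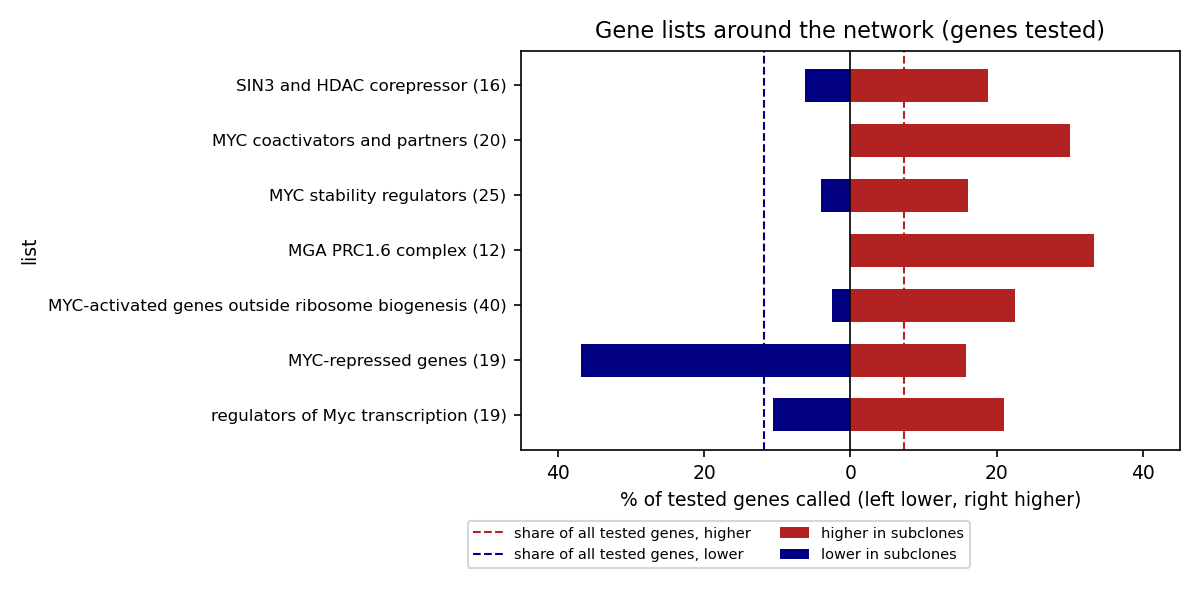
Percent of the tested genes of each list called higher (right) and lower (left) in the subclones, with the number tested in parentheses and dashed lines at the shares of all tested genes (7.33% higher, 11.8% lower). The lists share genes, those with under 10 tested genes are not drawn, and no bar carries a test.

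The split of calls over all genes depended on the method. Of the 2799 genes called by edgeR, 38.3% were higher in the subclones, and of the 3428 called by DESeq2 49.3% were, while on the log2(TPM + 0.1) scale 50.3% of 2676 were. With limma-voom the share was 29.97% of 3197. Each of the 10 network genes kept its direction in all 16 alternatives.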

How the data were processed

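The 8 RNA-seq libraries, 1 of 3H3P and 7 of 3H3PM subclones, were grouped by their titles. Per the submitters' processing notes, the tools were STAR, RSEM, FastQC and DESeq2 and the build GRCm38 (mm10). Tool versions and options are not given in these sources. Per the file headers, the deposited files hold an expected count, TPM, FPKM and lengths per gene. The expected count deposited by the authors divides reads shared between genes, so 3099 to 3459 genes per library have fractional values, among them Mxi1 and Mxd4 in some libraries. The TPM deposited by the authors served for levels and make-up, and the FPKM deposited by the authors for 1 alternative.

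Expected counts were rounded and tested with edgeR 4.0.16 (R 4.3.3; filterByExpr by group, TMM, quasi-likelihood F test, all 8 libraries, 6 residual degrees of freedom), Benjamini-Hochberg adjusted over all tested genes, threshold 0.05. An SE is the log2 fold change divided by the square root of F. CPM values are TMM-scaled, and spread used log2 CPM with a prior count of 2. Correlations and their exact permutations used numpy 2.4.6, with ranks from scipy 1.17.1. DESeq2 1.42.0 and limma 3.58.1, other scalings and filters, TPM scales with a pseudocount of 0.1 or 1 and leaving out each subclone were alternatives. Removing chromosome medians was added after seeing the data.

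The network genes and the lists were chosen with earlier results of these data known. Named genes were the 10 network genes, up to 4 called genes of each list by smallest p, the 5 genes (mean of 10 CPM or more) closest to Myc over the subclones, and tested genes within 2 Mb of Myc. Outside this rule are the called list genes marked as chosen after their values were seen. So are Shmt2, Cad, Ldha, Ccnd2, Nme1, Cdkn1a, Mlx, Mlxip and Zcwpw1, which did not pass. Some called list genes are not reported here. Positions come from GENCODE vM21, in which 98.2% of versioned identifiers and 9 of 10 network genes matched. Mxi1 differed in version and was placed by its unversioned identifier. Myc's promoter was not used here.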

Additional observations from a re-analysis of the deposited data

Results flagged for a closer look

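Single subclones stood apart from the other 6 in 5 of the 22 sets of values examined (CPM, weighted length and make-up), by a gap to the nearest value that exceeded Dixon's critical share of the whole range for 7 samples, which chance gives in about 1 in 20 sets of normally distributed values. Mycl was at 11.0 CPM in subclone 2 and at 1.33 to 4.83 CPM in the others. Mxd1 was at 34.9 CPM in subclone 8 and at 4.81 to 14.8 CPM in the others. Mxd4 was at 156 CPM in subclone 1 and at 45.5 to 92.0 CPM in the others. The weighted length of Max was 1589 bases in subclone 1 and 1857 to 1913 bases in the others. That of Mxd4 was 3190 bases in subclone 6 and 3603 to 3897 bases in the others. On the log2 scale, examined after the data were seen, the gap was 0.39 of the range for Mycl, 0.43 for Mxd1 and 0.43 for Mxd4, all under the critical share, so these 3 depend on the scale. Both lengths stayed above it, at 0.84 for Max and 0.61 for Mxd4. The Mnt length (3889 bases in subclone 8) and the Max share of TPM (28.5% in subclone 2) passed on the log2 scale alone.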

How the results depend on the processing

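Between 3 and 5 of the 10 network genes were called when each subclone was left out in turn, with 3 called without subclone 3 and 3 without subclone 9, beside 5 with all; the cause was not tested. Other settings gave 4 (DESeq2) or 5. Leaving out subclones moved the Myc log2 fold change from −3.91 to −3.59, the MYC family share of TPM in the subclones from 2.73% to 3.36%, and the median SD of the network genes from 0.46 to 0.60. The share was 3.09% on FPKM (40.2% in 3H3P) and 2.19% on CPM (25.7% in 3H3P). Of the single-gene values of the network genes under alternatives, 146 kept their side of the threshold, 11 lost a call and 3 gained one. For the other named genes 486 kept it and 74 lost a call, and none of these values changed direction. Over the alternatives the genes called higher and lower ran from 1 to 3 and 0 to 1 for the SIN3 list, 5 to 6 and 0 to 1 for coactivators, 1 to 7 and 0 to 1 for stability, 3 to 4 and 0 for PRC1.6, 0 to 1 and 0 for the MLX arm, 7 to 12 and 0 to 1 for MYC-activated genes, 2 to 3 and 3 to 8 for MYC-repressed genes (3 lower on both TPM scales), 3 to 4 and 1 to 3 for regulators of Myc, and 0 and 0 to 1 for germline genes. Calls over all tested genes moved in the same settings. Genes called higher ran from 669 of 14455 (without subclone 3) to 1689 of 14634 (DESeq2). Genes called lower ran from 1322 of 14455 (without subclone 3) to 2239 of 14634 (limma-voom). The part of this in the ranges of the lists was not tested. No paired analysis was possible because 3H3P has 1 library with no replicate number. The variation of that library was not measured, and Mycn, with 20 counts over the subclones, is limited by depth.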
